A study of Homo sapiens with 8 samples.

Results

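The 40 genes described here are interferon-stimulated genes together with the receptors and transcription factors that carry the interferon signal. They were listed by name, and each was matched through its Ensembl identifier to its current symbol, so that 40 of the 57820 genes of the count table are covered. RNA-seq was done on side population (SP) and non-side population (NSP) cells sorted from J82, a long-established line from a human bladder tumor that was grown in DMEM with serum. By the study's methods, the sort separated cells that exclude the Hoechst dye (SP) from cells that retain it (NSP). There were 4 SP and 4 NSP libraries, numbered 1 to 4 in each group, and the labels give neither group an interferon, a drug or a genetic change. The labels do not say whether the replicates come from separate cultures, so the p-values measure the spread between these libraries, which may be technical. The libraries are bulk samples, in which fewer cells of a type and less RNA per cell cannot be told apart.

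Interferons are secreted proteins that cells release when they sense foreign or misplaced nucleic acid. Type I interferons bind IFNAR1 and IFNAR2, type III interferons bind IFNLR1 with IL10RB, and both lead through the kinases JAK1 and TYK2 to the ISGF3 complex, which includes STAT2 and IRF9. ISGF3 enters the nucleus and binds a short DNA element, the interferon-stimulated response element (ISRE), in the promoters of genes whose products block viral entry, translation and replication. In tumor cells the same genes can be active at a steady low level without added interferon.

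Libraries held 1431823 to 1697218 counts in the SP group and 1489033 to 2073526 in the NSP group. These totals are far below the raw reads per sample that the study's methods state, so most reads are not in the counts. The reason was not tested, and a low count below need not mean low expression in J82 cells. Values are given as CPM, the count scaled to the TMM-normalized library size. Of the 16 urothelial and epithelial markers listed, 5 had enough counts for a test, with KRT8 at 3298 CPM in SP and 4022 CPM in NSP cells on average, while KRT13, KRT20, UPK3A and TP63 had 0 counts. Of these markers 1 was called lower in SP cells (KRT7), as was 1 of 6 mesenchymal markers (FN1), beside 2.03% of all tested genes. When same-numbered SP and NSP libraries were taken as pairs (the replicate block), VIM (log2 fold change -0.75) and SPARC (-0.62) were called lower too. That made 3 of 6 mesenchymal markers lower, where 7.0% of all tested genes were called lower in that model. CDH2 (-0.05), ZEB1 (-0.50) and ZEB2 (0.53) were not called with the block. DESeq2 also called VIM lower. The summed level was 3430 to 4783 CPM in SP and 4676 to 6414 CPM in NSP libraries for the epithelial list, and 325 to 502 CPM against 548 to 917 CPM for the mesenchymal list. Of the 4 endothelial markers 3 were matched, all under 5 counts. The leukocyte and erythroid list summed to 43.3 to 98.7 CPM in SP and 20.4 to 58.8 CPM in NSP libraries, nearly all of it from CD14 and CD68, with PTPRC, CD3E, MS4A1 and HBB at 0. Of these 10 markers only 2, CD14 and CD68, had enough counts for a test, and 0 were called without the block. With it CD14 was called higher in SP cells (log2 fold change 1.01, higher in 4 of 4 pairs), beside 5.89% of all tested genes. Mitochondrially encoded genes took 3.46% to 7.57% of the counts in SP and 1.65% to 4.01% in NSP libraries, and the part of these markers and of the mitochondrial share in the results below was not tested. The strand setting of the counting is not given in the sources used here. Where a lncRNA and a coding gene share exon positions on opposite strands (595 pairs), the count per kb was the greater for the lncRNA in 88.2% of pairs. A level below is therefore the level as counted, and which strand the reads came from was not tested.

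The ISRE letters were common near the start sites of these genes. A few promoters are shown, for genes that were highly expressed or called with the replicate block, and for PARP14, whose fold change was among the lowest. RefSeq promoters (GRCh38.p14, from 250 bases before to 50 bases after each start site) were matched for 31 of the 40 genes. IFNAR2, IRF3, IRF7, IFIT2, IFITM2, OAS2, OASL, MX2 and USP18 were not matched. The ISRE pattern searched was GAAA, any 2 bases, then GAAA, on either strand (TTTC, any 2 bases, TTTC in the reverse reading). It was present in a promoter of 20 of the 31 genes (64.5%), against 4.38% of all 27305 genes with a promoter in the table. A gene counts once, whichever of its promoters holds the letters. The letters TTCNNNGAA, which are their own reverse complement and resemble the gamma-activated sequence of genes that respond to interferon gamma, were present for 11 of the 31 (35.5%) against 9.38% of all genes. The 2 patterns overlapped in the promoters of 4 of these genes. In the stretches below, read 5′ to 3′ on the strand of the gene, the capitals mark each ISRE match, and every stretch ends before the start site.
IFI6, chr1:27672256-27672368, minus strand: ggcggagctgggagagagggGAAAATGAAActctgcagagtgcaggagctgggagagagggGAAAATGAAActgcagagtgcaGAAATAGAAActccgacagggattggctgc
ISG15, chr1:1013364-1013419, plus strand: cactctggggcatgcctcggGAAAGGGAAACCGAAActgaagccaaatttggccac
IFITM3, chr11:320866-320932, minus strand: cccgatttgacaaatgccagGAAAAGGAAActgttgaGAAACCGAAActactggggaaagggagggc
IFIT3, upstream start, chr10:89327821-89327904, plus strand: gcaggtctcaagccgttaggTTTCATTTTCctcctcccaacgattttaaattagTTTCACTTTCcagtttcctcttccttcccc
IFIT3, downstream start, chr10:89332415-89332507, plus strand: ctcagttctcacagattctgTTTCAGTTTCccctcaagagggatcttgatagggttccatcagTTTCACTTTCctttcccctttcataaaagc
BST2, chr19:17405725-17405780, minus strand: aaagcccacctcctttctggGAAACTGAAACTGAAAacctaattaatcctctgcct
PARP14, chr3:122680790-122680838, plus strand: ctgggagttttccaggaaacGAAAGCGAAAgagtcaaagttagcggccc

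IFI6 carries 3 matches between 156 and 93 bases upstream of its start, and ISG15 and BST2 each carry 2 matches that share bases. Both IFIT3 promoters carry the pattern in its reverse reading. Among the genes with a promoter that were also tested, the log2 fold change of SP over NSP had a median of 0.16 in the 17 with an ISRE match and 0.20 in the 8 without, with both sets ranging from about the same low value (-0.53 and -0.54) to 0.64 and 0.49. A match is a description of the sequence, and the absence of a match says only that these letters are not in this window.

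J82 cells had counts for all 40 genes, over a wide range of levels. Per kb of annotated exon and averaged over the 8 libraries, IFI6 (554 CPM per kb), ISG15 (511), IFITM1 (293), IFITM3 (175) and BST2 (163) were the highest, followed by IRF7 at 68.8 and IFI27 at 36.9 CPM per kb. The OAS, MX, IFIT and PARP genes lay between 0.782 CPM per kb for IFIT2 and 16.2 CPM per kb for OAS3. The receptors, DDX60 and IRF9 were at the bottom, at 0.377 CPM per kb for IFNAR1, 0.332 for DDX60, 0.296 for IFNAR2, 0.108 for IFNLR1 and 0.033 for IRF9. The exon length is that of all annotated transcripts of a gene together, which lowers the value of genes with long alternative ends.

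**Figure D1:**
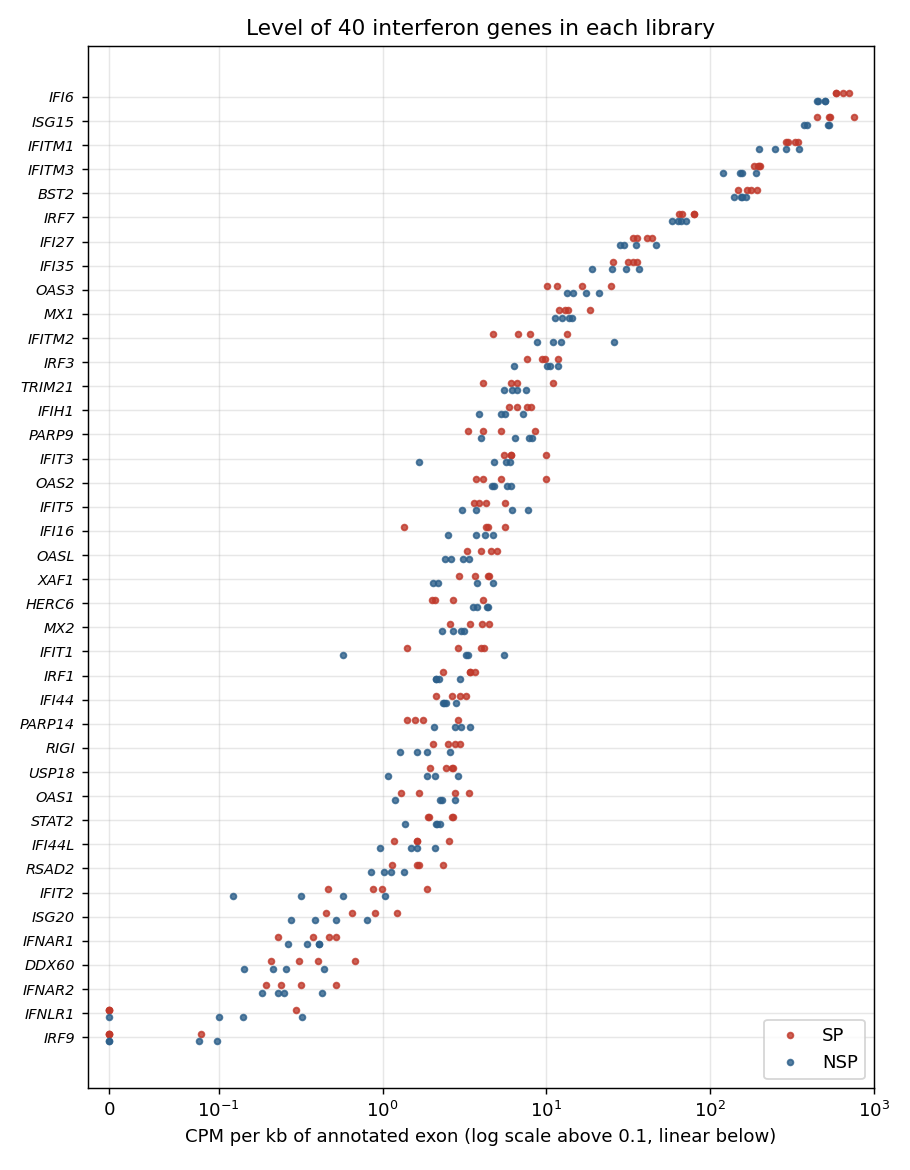
CPM per kb of annotated exon for the 40 interferon genes (rows), on a log axis above 0.1 and a linear one below, with a point for each of the 4 SP and 4 NSP libraries. IFI6 and ISG15 lie near 500 CPM per kb, IRF9 near 0, and SP and NSP points overlap for nearly every gene.

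Whether the program is set differently in SP and NSP cells was tested for the 32 members with enough counts. A gene was called when its edgeR quasi-likelihood test gave a Benjamini-Hochberg adjusted p below 0.05 with over 1.3-fold change. By that rule 0 of the 32 were called higher in SP cells and 0 lower, where 3.66% of all 9309 tested genes were called (1.63% higher and 2.03% lower). Before adjustment, 5 of the 32 had p below 0.05 (IFI6, OASL, IRF1 and IFITM3 higher, IFITM2 lower), beside 16.4% of all tested genes (8.13% higher and 8.27% lower). DESeq2 called 1 member higher, IFI6, and 0 lower, beside 3.33% of its tested genes (1.28% higher and 2.05% lower), and limma voom called 0 either way, beside 4.2% (1.9% higher and 2.3% lower). The log2 fold changes leaned towards SP: 25 of 32 were above 0, against 51.8% of all tested genes, and their median was 0.17 against 0.01. Without SP replicate 3, 19 of 32 were above 0 and the median was 0.15, and without SP replicate 1, 28 of 34 were above 0 and the median was 0.31.

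The labels do not say that same-numbered SP and NSP libraries belong together, so taking them as pairs is an assumption. With the number as a block in the model, 2 members were higher (IFI6 and IFIT3) and 1 was lower (IFITM2) in SP cells. In that model 12.9% of all tested genes were called, so 3 of 32 is no larger a share than the background. Within pairs, SP lay above NSP in 4 of 4 for 9 members and below in 4 of 4 for 3 members, beside 14.9% and 15.1% of all tested genes. The 9 were IFI6, ISG15, IFITM3, IFIH1, IFIT3, OASL, MX2, IRF1 and RSAD2, and the 3 were IFITM2, HERC6 and PARP14. By number, the median difference of SP minus NSP over the 32 members on the log2(CPM + 1) scale was 0.15, 0.21, 0.45 and -0.07 for the pairs 1 to 4, and 19, 21, 27 and 14 members were higher in the SP library. The fourth pair therefore did not share the lean of the other pairs.

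**Figure D2:**
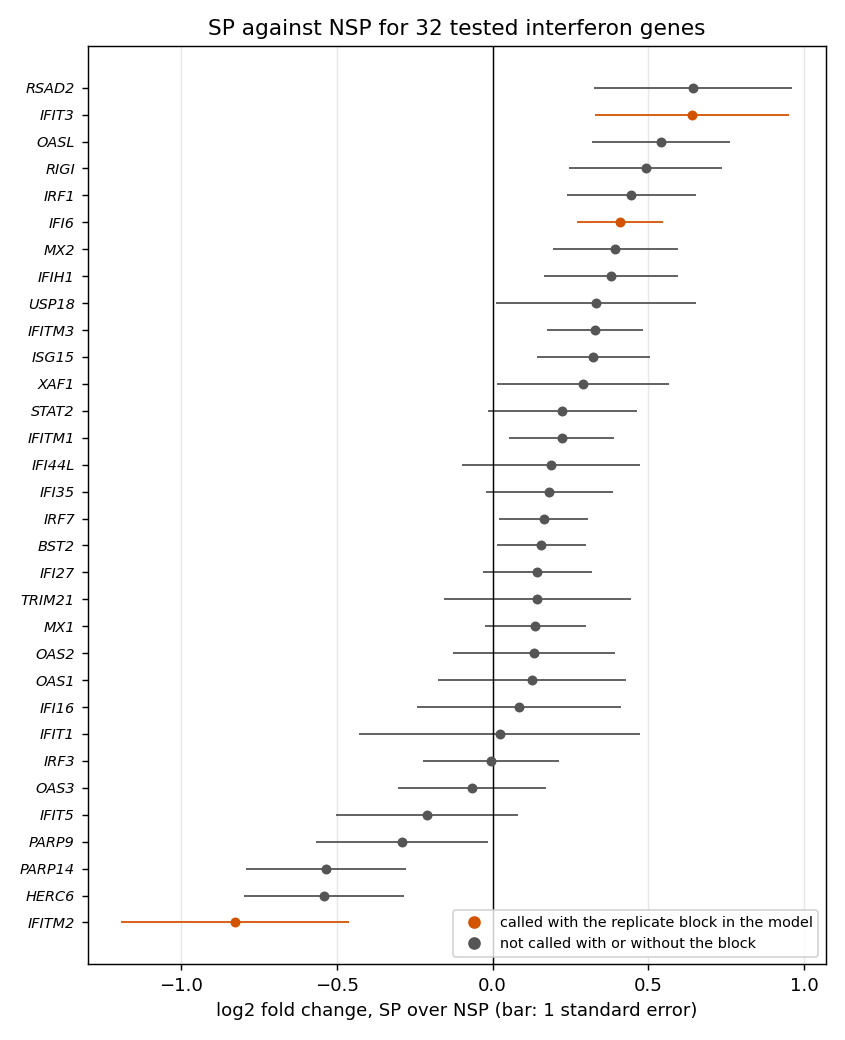
Log2 fold change of SP over NSP with 1 standard error for the 32 tested interferon genes, ordered by size. RSAD2 is at the top (0.64) and IFITM2 at the bottom (-0.83), and the 3 genes called with the replicate block are marked in orange.

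Receptors were thinly counted and did not pass the edgeR filter. IFNAR1, the signalling chain of the type I receptor, had 5, 11, 15 and 8 counts in SP libraries 1 to 4 and 12, 11, 10 and 6 in the NSP libraries. IFNAR2, which binds the ligand with high affinity, had 10, 5, 5 and 6 counts in SP and 6, 12, 4 and 5 in NSP libraries. Both chains were counted in all 8 libraries, and the groups overlapped. DESeq2, which tested both, gave log2 fold changes of 0.15 (standard error 0.49) for IFNAR1 and 0.17 (standard error 0.60) for IFNAR2, with adjusted p of 0.961 and 0.966. IFNLR1, the ligand-binding chain for type III interferons, had 0, 0, 0 and 2 counts in SP and 3, 1, 0 and 1 in NSP libraries, which allows no statement on its direction at this depth.

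Of the transcription factors, 0 of the 4 tested passed. STAT2, a subunit of ISGF3, had 18.0, 24.8, 24.9 and 17.7 CPM in SP and 19.7, 20.7, 12.8 and 20.1 CPM in NSP libraries, and the groups overlapped (log2 fold change 0.22, standard error 0.24). IRF9, the DNA-binding subunit of ISGF3, had 1 count in a single SP library and 1 count in each of 2 NSP libraries. Of its 6471 bp of annotated exon, 1544 bp are shared with genes on the same strand, where reads may be left unassigned. The part of this in the low count was not tested. IRF7, the factor that amplifies type I interferon production, was the best counted, at 190 ± 20.8 CPM in SP and 170 ± 13.7 CPM in NSP cells (mean and SD of 4 libraries each), and IRF1, a factor induced early by interferon gamma, was at 39.5 ± 7.24 and 28.9 ± 5.09 CPM (log2 fold change 0.45, standard error 0.21, adjusted p = 0.291 by edgeR). IRF3, which is activated by phosphorylation more than by synthesis, was level between the groups, with a log2 fold change of -0.01 and a standard error of 0.22.

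The 3 tested nucleic acid sensors had positive fold changes that did not pass, though IFI16 was at -0.15 with limma voom. RIGI and IFIH1, the cytosolic helicases that sense viral RNA, had log2 fold changes of 0.49 and 0.38, with standard errors of 0.25 and 0.21. IFI16, a DNA sensor, was at 20.8 ± 9.60 CPM in SP and 20.1 ± 4.98 CPM in NSP cells (mean and SD of 4 libraries each). DDX60, a helicase that assists RNA sensing, had 5 to 16 counts per SP and 5 to 11 per NSP library and was not tested.

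The IFIT proteins bind foreign RNA ends and block its translation. IFIT3 (chromosome 10 of GRCh37, 91087064 to 91137230, plus strand), which stabilizes IFIT1, had 28.1, 30.8, 50.4 and 30.9 CPM in SP libraries 1 to 4 and 8.51, 24.2, 28.7 and 30.4 CPM in the NSP libraries. The SP library was higher in every pair, but the groups overlapped, and the low NSP replicate 1 and the high SP replicate 3 set much of the difference. The log2 fold change of IFIT3 was 0.64 with a standard error of 0.31 (adjusted p = 0.325), and with the replicate block it was called at 0.65 (standard error 0.21, adjusted p = 0.0232, both by edgeR). Over single libraries left out, the unblocked value ran from 0.35, without NSP replicate 1, to 0.79. LIPA, a lysosomal lipase gene with 94 bp of exon across IFIT3 on the other strand, was called lower in SP cells (log2 fold change -1.22, standard error 0.31), the opposite direction, and its part in the IFIT3 counts was not tested. IFIT1 and IFIT5 had log2 fold changes of 0.02 and -0.21 with standard errors of 0.45 and 0.29. IFIT2 had 1 to 11 counts per library and was not tested.

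The IFITM proteins sit in membranes and restrict viral fusion. IFITM1 and IFITM3 were among the best counted members, with 6266 and 6384 counts over the 8 libraries, while IFITM2 had 232. IFITM3 (chromosome 11, 319676 to 329475, minus strand) had 564, 554, 523 and 571 CPM in SP and 443, 434, 342 and 543 CPM in NSP libraries. The SP libraries were tightly grouped, and only NSP replicate 4 reached into their range (log2 fold change 0.33, standard error 0.15, adjusted p = 0.30). IFITM1 had 569, 485, 496 and 549 CPM in SP and 482, 411, 329 and 578 CPM in NSP libraries, with the highest value in an NSP library (log2 fold change 0.22, standard error 0.17). IFITM2 (chromosome 11, 303655 to 309397, plus strand), which acts in endosomes, ran the other way, with 10.8, 12.7, 7.58 and 21.3 CPM in SP and 17.6, 19.8, 14.03 and 41.5 CPM in NSP libraries. Each SP library was below its own NSP partner, while the groups as a whole overlapped because replicate 4 was high in both. The log2 fold change of IFITM2 was -0.83 with a standard error of 0.37 (adjusted p = 0.265), and with the replicate block it was called at -0.80 (standard error 0.25, adjusted p = 0.0152, both by edgeR). The unblocked value ran from -1.16 to -0.42 with single libraries left out. The IFITM genes are close copies of each other, and how reads matching several of them were counted is not stated, so the level of IFITM2 is uncertain.

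The OAS enzymes make the second messenger that switches on the nuclease RNase L. OAS3 was the best counted of them, with 210, 296, 450 and 183 CPM in SP and 241, 314, 378 and 263 CPM in NSP libraries. The order of the numbers was nearly the same in both groups, with replicate 3 highest, and the difference between the groups was small (log2 fold change -0.07, standard error 0.24). OASL, a member without the enzyme activity that supports RIG-I signalling, had 25.2, 28.8, 31.4 and 20.6 CPM in SP and 19.7, 21.2, 15.3 and 16.6 CPM in NSP libraries. Only the lowest SP library lay inside the NSP range (log2 fold change 0.54, standard error 0.22, adjusted p = 0.228 by edgeR). OAS1 and OAS2 had log2 fold changes of 0.13 each, with standard errors of 0.30 and 0.26, and OAS2 turned to -0.28 without SP replicate 3.

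Among the other antiviral effectors, 0 of 5 tested passed and all 5 had positive fold changes, though TRIM21 was at -0.013 with limma voom. RSAD2, which encodes viperin, an enzyme that makes a chain-terminating nucleotide, had the largest fold change of the 32 members on few counts: 6.48, 9.38, 9.20 and 13.2 CPM in SP and 4.79, 6.42, 5.74 and 7.61 CPM in NSP libraries, from 9 to 18 counts in each. The SP library was higher in every pair, and SP replicate 1 lay inside the NSP range (log2 fold change 0.64, standard error 0.32, adjusted p = 0.332). MX1, a dynamin-like GTPase that blocks incoming viral particles, had 215, 242, 331 and 233 CPM in SP and 202, 224, 259 and 246 CPM in NSP libraries, with replicate 3 the highest in both groups (log2 fold change 0.14, standard error 0.16). Its relative MX2 had a log2 fold change of 0.39 (standard error 0.20). BST2, the tether that holds budding virus at the cell surface, and TRIM21, the antibody receptor of the cytosol, had 0.16 and 0.14 (standard errors 0.14 and 0.30). ISG20, an exonuclease, had 4 to 12 counts per library and was not tested.

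ISG15, the ubiquitin-like protein that is attached to other proteins after interferon, had 391, 466, 654 and 460 CPM in SP and 340, 450, 461 and 324 CPM in NSP libraries. The SP library was higher in every pair and the groups overlapped (log2 fold change 0.32, standard error 0.18, adjusted p = 0.405). USP18, the protease that removes ISG15 and dampens receptor signalling, had a log2 fold change of 0.33 (standard error 0.32). HERC6, a relative of the human ISG15 ligase HERC5, was the second lowest by fold change, with 11.5, 12.1, 23.8 and 15.5 CPM in SP and 25.0, 21.7, 25.5 and 20.7 CPM in NSP libraries. In 3 of 4 SP libraries it was below the whole NSP range, and SP replicate 3 lay inside it (log2 fold change -0.54, standard error 0.26, adjusted p = 0.310). PARP14, an ADP-ribosyl transferase, followed with 14.4, 18.1, 29.8 and 16.2 CPM in SP and 21.3, 28.6, 35.1 and 31.1 CPM in NSP libraries, lower in SP in every pair (log2 fold change -0.53, standard error 0.26, adjusted p = 0.317). The related PARP9 had a log2 fold change of -0.29 (standard error 0.28).

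IFI6 (ENSG00000126709.10, chromosome 1 of GRCh37, 27992575 to 27998723, minus strand), a small membrane protein of the endoplasmic reticulum and mitochondria that opposes cell death and flavivirus replication, was the only tested member whose groups did not overlap, beside 9.75% of all tested genes (4.78% with SP above and 4.97% with SP below). Its exons share 216 bp with a gene on the same strand. It had 606, 552, 549 and 661 CPM in SP libraries 1 to 4 and 467, 471, 423 and 420 CPM in the NSP libraries, from 608 to 1014 counts per library. All 4 SP values lay above all 4 NSP values (p = 0.0286 in an exact, two-sided permutation test on log2(CPM + 1) values, the smallest that 4 against 4 allow). The fold was 1.33 (log2 fold change 0.41, standard error 0.14, adjusted p = 0.121 by edgeR), so the gene did not pass over all genes. With the replicate block it was called at 0.41 (standard error 0.13, adjusted p = 0.0186), and DESeq2 called it at 0.39 with an adjusted p of 0.0495, at the threshold. Over all alternatives its log2 fold change was 0.35 to 0.44 and its adjusted p 0.0186 to 0.349. IFI27, IFI35, IFI44L and XAF1, the tested genes of the same group, had log2 fold changes of 0.14 to 0.29 and overlapped between the groups. IFI44 had 6 to 10 counts per library and was not tested.

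**Figure D3:**
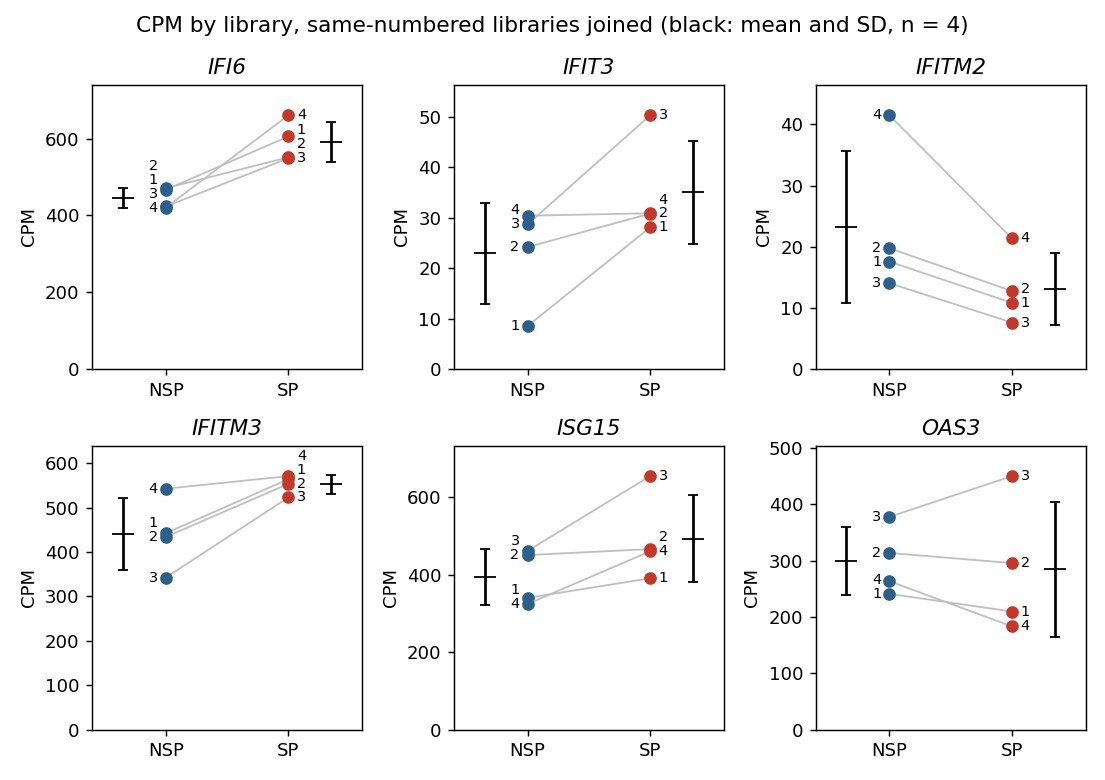
CPM of 6 interferon genes in the NSP (blue) and SP (red) libraries, with lines joining libraries of the same number and black bars giving the mean and SD (n = 4). IFI6 lies at 420 to 471 CPM in NSP and 549 to 661 CPM in SP libraries, IFITM2 is lower in SP in each pair, and OAS3 spreads from 183 to 450 CPM within SP.

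Many of the interferon genes were high or low in the same library of a group. In SP cells, replicate 3 had the highest value for 18 of the 32 tested members (56.3%), where it was highest for 26.0% of all tested genes, and replicate 1 had the lowest value for 18 (56.3%, against 24.2% of all). In NSP cells, replicate 1 was the lowest for 17 (53.1%, against 27.5%) and replicate 4 the highest for 15 (46.9%, against 24.5%). The median deviation of the members from their group mean on the log2(CPM + 1) scale was -0.28, 0.02, 0.24 and -0.08 for SP replicates 1 to 4 and -0.20, 0.08, 0.00 and 0.15 for NSP replicates 1 to 4, with medians over all genes within 0.02 of 0. Summed over the 40 genes, the level was 3936 ± 349 CPM in SP and 3384 ± 187 CPM in NSP cells (mean and SD of 4 libraries each), and the lowest SP library (3617 CPM) was above the highest NSP library (3573 CPM). That sum is made mostly by IFI6, IFITM1, IFITM3 and ISG15, and IFI6 alone averaged 592 CPM in SP and 446 CPM in NSP cells. It therefore says little about the other members, and sums over gene sets of like level were not compared. Same-numbered libraries deviated together over the 32 members (Pearson r of 0.57, 0.26, 0.44 and 0.48 for numbers 1 to 4, as a description across genes that share these libraries). They also did so over all 9309 tested genes, with r of 0.38, 0.203, 0.322 and 0.321 for the same numbers. SP replicate 3 had the most counts of the SP libraries, and NSP replicate 4 the fewest of the NSP libraries.

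**Figure D4:**
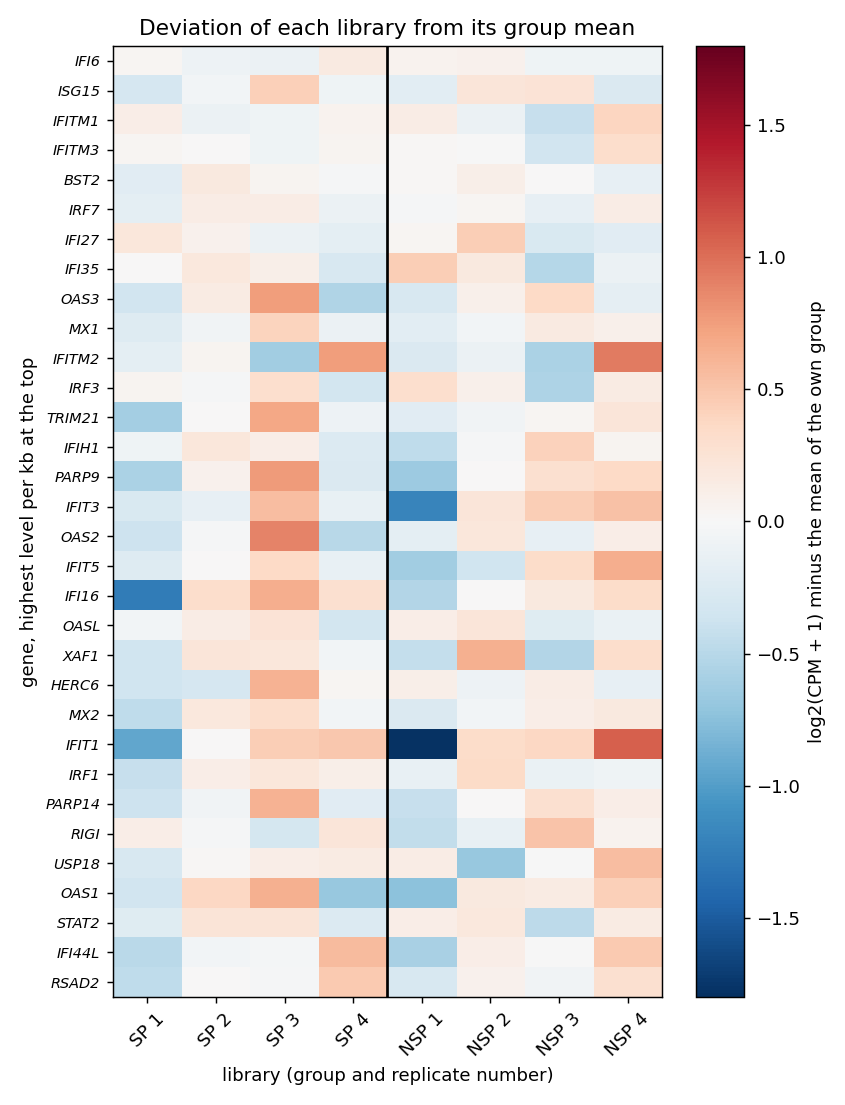
Deviation of each library from the mean of its own group on the log2(CPM + 1) scale (red above, blue below) for the 32 tested interferon genes, highest level per kb at the top. SP replicate 3 is the highest SP library in 18 of 32 rows and SP replicate 1 the lowest in 18, and NSP replicate 1 is the lowest NSP library in 17.

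Beyond these members, 87 of 89 other genes of interferon signalling and response were found, 51 were tested, and 1 was called higher and 0 lower in SP cells, beside 1.63% and 2.03% of all tested genes. Before adjustment, 4 of the 51 had p below 0.05 with higher and 3 with lower levels in SP cells, beside 8.13% and 8.27% of all tested genes. The called gene was SOCS1 (ENSG00000185338.4, chromosome 16 of GRCh37, 11348274 to 11350061, minus strand), the feedback inhibitor that binds JAK kinases and shuts off interferon receptor signalling. SOCS1 had 18.7, 36.2, 37.9 and 34.6 CPM in SP and 9.58, 8.40, 10.8 and 10.4 CPM in NSP libraries, from 26 to 70 and 15 to 18 counts. The NSP libraries were nearly level and all SP libraries lay above them. The fold was 3.27 (log2 fold change 1.71, standard error 0.26, adjusted p = 0.0023 by edgeR), and it was called under every alternative, with log2 fold changes of 1.61 to 1.89. Exons of other annotated genes share 0 bp with its own on either strand. The related inhibitor SOCS3 had 33 and 34 counts in replicate 1 of SP and NSP and 3 to 11 counts in the other libraries, and was not tested.

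The interferon genes themselves were at or near 0: of 10 ligand genes, 3 had any count, with at most 2 in a library, and 0 were tested. Of the kinases and receptor chains, 0 of 5 tested were called, with log2 fold changes from -0.36 (IFNGR2) to 0.31 (TYK2). Of the feedback genes and other factors, 1 of 6 tested was called, SOCS1, and the lowest was PTPN2 at -0.08. Of the sensing adaptors, 0 of 7 were called, with DHX58, a regulator of RIG-I, highest at 0.38 and TRIM25, the ubiquitin ligase that activates RIG-I, lowest at -0.82 (adjusted p = 0.0884).

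Among the other interferon-stimulated genes, 0 of 33 tested passed without the block. GBP2, a guanylate-binding protein, was the highest, with 18.0, 19.4, 19.5 and 25.0 CPM in SP and 7.98, 15.3, 12.1 and 9.68 CPM in NSP libraries and no overlap (log2 fold change 0.85, standard error 0.26, adjusted p = 0.0926). LY6E, a surface protein that restricts coronavirus entry, was the lowest, with 257, 209, 200 and 279 CPM in SP and 478, 479, 283 and 308 CPM in NSP libraries. Its groups did not overlap either (log2 fold change -0.71, standard error 0.19, adjusted p = 0.052), and it was called lower under 7 other settings besides 2 of the fits with a library left out. With the replicate block, 3 of the 51 pathway genes were higher (SOCS1, GBP2 and SAMD9) and 3 were lower (LY6E, TRIM25 and LGALS3BP). In that model 5.89% of all tested genes were called higher and 7.0% lower, so neither count is a larger share than the background.

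**Figure D5:**
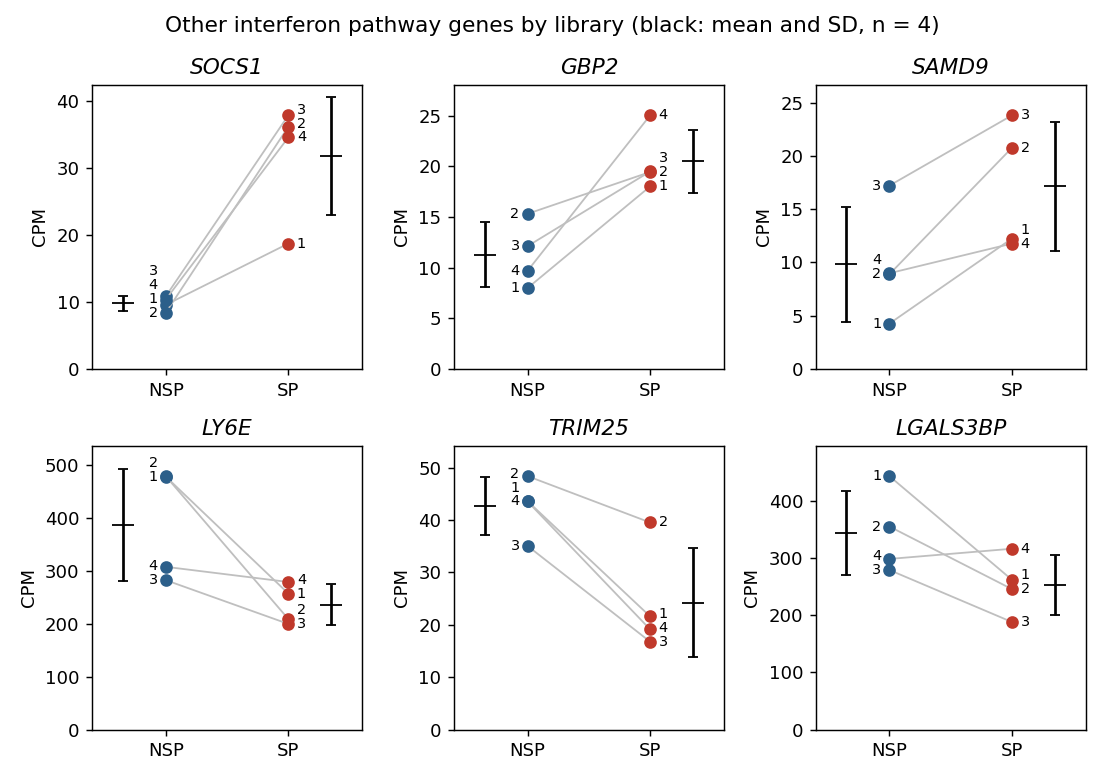
CPM of 6 other interferon pathway genes in the NSP (blue) and SP (red) libraries, with lines joining libraries of the same number and black bars giving the mean and SD (n = 4). SOCS1 lies at 8.40 to 10.8 CPM in NSP and 18.7 to 37.9 CPM in SP libraries, and LY6E and TRIM25 are lower in SP in each pair.

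Exons of 13 of the 40 members (32.5%) lie across exons of a gene on the other strand, against 54.2% of all tested genes. These sets are unlike, since the 40 include members with too few counts for a test. In 7 of the 15 such pairs the partner had more counts per kb than the member. The ratio per kb was greatest at OAS1 (285), followed by IFNAR2 (78.5) and MX1 (74.2). At OAS1 the lncRNA ENSG00000257452 had 4731 counts over the 8 libraries against 376 for the gene, and at MX1 the lncRNA ENSG00000228318 had 14647 against 3183. The log2 fold changes of these partners were -0.12 (standard error 0.16) at MX1 and -0.02 (standard error 0.21) at OAS1. At IFNAR2, IL10RB-DT had 679 counts against 53 and a log2 fold change of 0.69 (standard error 0.21, adjusted p = 0.0828 by edgeR). The partners at IFITM1 and ISG15 had 2 and 21 counts and those at IFITM3 had 3 and 0, against 6266, 5813 and 6384 counts for the genes themselves. With every gene of this kind left out of the fit, 21 members were tested, 0 were called and their median log2 fold change was 0.10, and the median over members without such a partner was 0.16 when taken from the fit to all genes.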

How the data were processed

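By the study's methods, reads of 50 bp from one end were mapped to hg19 with STAR and assigned to gencode version 19 genes by featureCounts. Tool versions, the strand setting and the handling of multi-mapped reads are not given in the sources used here. The values the authors deposited are raw counts per gene, without normalization. Each column was matched to its sample by name.

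Symbols, positions and exon overlaps came from GENCODE version 44 on GRCh37, the same assembly as hg19 (55538 of 57820 genes matched). The main test was edgeR 4.0.16 under R 4.3.3, with TMM scaling, the filterByExpr filter (counts of at least 10, totals of at least 15), the quasi-likelihood F test and no covariate. A call needed a Benjamini-Hochberg adjusted p below 0.05 over all 9309 tested genes and over 1.3-fold change. The standard error is the size of the log2 fold change over the root of F. On simulated counts for these 9309 genes, 4-fold changes were recovered in 100% and 2-fold changes in 58% of the genes given them, and 8 of the 166 calls were false. Alternatives were DESeq2 1.42.0, limma 3.58.1 (voom), other scalings and filters, the replicate number as a block, and each library left out. Permutation tests used scipy 1.17.1.

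The members, the lists and the rule for named genes were chosen with earlier results of these data known. Values per library are given for members called by the main, blocked or DESeq2 fit, the 3 largest and 3 smallest fold changes, the 6 highest counts, the receptors, STAT2 and IRF9. Of other pathway genes, those called and the extremes of each list are given. Others were named after their values were seen. IKBKE and CCL5 were not matched.

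SP and NSP libraries of the same number departed from their group means in a correlated way (r of 0.38, 0.203, 0.322 and 0.321 over 9309 genes). The number was therefore taken as a pairing in the replicate block and the differences within pairs, and not in the main test. The labels do not state this pairing, and the correlations between libraries of unlike number are not given here. Libraries of a group differed by more than sampling noise (chi-square per degree of freedom 5.9 to 13.8), and each counted as 1 sample.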

Additional observations from a re-analysis of the deposited data

Results flagged for a closer look

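Of 78 sets of 4 libraries examined, 3 had a single library standing apart, and chance alone gives about 1 in 20, or about 4. The gap to the nearest library was 0.867 of the whole range for STAT2 in NSP cells (replicate 3, low), 0.914 for IRF1 in NSP cells (replicate 2, high) and 0.873 for IFIT3 in SP cells (replicate 3, high). The unblocked log2 fold change of IFIT3 stayed above 0 with any library left out.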

How the results depend on the processing

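Members called stayed at 0 in each direction under every alternative except the replicate block (2 higher, 1 lower) and DESeq2 (1 higher). All genes called, 152 higher and 189 lower, became 548 and 652 with the replicate block, 303 and 381 without a filter, and 59 and 62 without genes overlapping on the other strand, which tests fewer genes. Leaving out a library gave 69 to 164 higher and 89 to 181 lower, lowest without NSP replicate 2. There were 93 higher without NSP replicate 1, and 91 higher and 110 lower without SP replicate 2. The members' median ran from 0.15 to 0.31 when a library was left out, with the top value without SP replicate 1. Other pathway genes higher went from 1 to 3 with the replicate block. Those lower went from 0 to 3 with the block, to 2 without a filter (LY6E and TRIM25) and to 1 (LY6E) with DESeq2's size factors, DESeq2, limma voom, the stricter count filter or mitochondrial genes removed. They were 0 to 1 with a library left out (LY6E without NSP replicate 3 or 4, TRIM25 without SP replicate 2). The block changed the calls of IFI6, IFIT3, IFITM2, GBP2, SAMD9, LY6E, TRIM25 and LGALS3BP and no other call among members and pathway genes, and of the markers it added VIM, SPARC and CD14.

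Fold changes near 0 changed sign, and the causes were not tested. IRF3 became 0.013 with upper-quartile normalization and 0.010 with the replicate block. With limma voom, IFI16 became -0.15, OAS1 -0.0034, OAS2 -0.10 and TRIM21 -0.013. IFIT1 became -0.024 with DESeq2 and -0.048 without genes overlapping on the other strand. With a library left out, the log2 fold change ran from -0.16 to 0.097 for IRF3, -0.15 to 0.36 for IFI16, -0.34 to 0.41 for IFIT1, -0.40 to 0.036 for IFIT5, -0.13 to 0.31 for OAS1, -0.28 to 0.28 for OAS2, -0.38 to 0.087 for OAS3, -0.015 to 0.21 for MX1, -0.19 to 0.32 for TRIM21 and -0.044 to 0.35 for IFI44L. At 1431823 to 2073526 counts per library, 8 of the 40 members did not pass the edgeR filter, and DESeq2's standard errors for IFNAR1 and IFNAR2 were 0.49 and 0.60 (log2).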
